A study of Mus musculus with 6 samples.

Results

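The genes described here are 10 members of the mouse Toll-like receptor family (Tlr1, Tlr2, Tlr3, Tlr4, Tlr5, Tlr6, Tlr7, Tlr8, Tlr9 and Tlr13), chosen by name from the 60832 genes of the count table and not by their values. They were read in 6 RNA-seq libraries labelled as liver sinusoidal endothelial cells (LSECs), which form the wall of the small blood channels of the liver. Of these libraries, 3 came from xenografts labelled bevacizumab-sensitive and 3 from xenografts labelled bevacizumab-resistant, in which HCT116 cells modelled colorectal cancer liver metastasis (CRCLM). HCT116 is an established human colorectal cancer line, which had been placed in a liver lobe of BALB/c-Nu mice (males, 4 to 6 weeks of age), and bevacizumab is an antibody against the growth factor VEGF-A. The comparison addresses whether LSECs of metastases that had become resistant to the drug express other genes than LSECs of metastases labelled as sensitive to it. By the study's methods, resistant xenografts were obtained with 10 mg/kg bevacizumab over 7 weeks (42 days by its results text), and vehicle mice received IgG. The sample titles and the study's methods do not say what the sensitive xenografts of these libraries received. Exposure to the drug and resistance to it may therefore not be told apart here. BALB/c-Nu mice are athymic and lack T cells. LSECs were isolated with anti-CD146 beads from digested metastatic tissue, and the study's methods report a high purity for CD146 by flow cytometry. All 6 labels state a culture of 24 h before RNA extraction. The labels do not say whether libraries came from separate mice or from pools, so p-values measure only the spread between these samples, which may be technical. The series' design text names another cell type and treatment than the sample labels do, and the groups were taken from the sample labels alone.

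Toll-like receptors are membrane proteins that recognise microbial products and some products of damaged cells. Tlr2 pairs with Tlr1 or Tlr6 to bind bacterial lipopeptides, Tlr4 binds lipopolysaccharide with its partner protein Ly96 and the helper Cd14, and Tlr5 binds flagellin, all at the cell surface. Tlr3 binds double-stranded RNA, Tlr7 and Tlr8 single-stranded RNA, Tlr9 DNA with unmethylated CpG and Tlr13 bacterial ribosomal RNA, all in endosomes, where the receptors are cut by proteases before they signal. Most members signal through the adaptor Myd88, Tlr3 through Ticam1 (TRIF), and Tlr4 through both. In the liver, both Kupffer cells, its resident macrophages, and LSECs meet microbial products that arrive from the gut with the portal blood.

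All 10 members had reads in every library and all 10 passed the filter on low counts. The lowest count of a member was 51, for Tlr5 in resistant replicate 3, and the highest was 12007, for Tlr13 in resistant replicate 2. Total counts on genes were 17599326 to 20726684 per library, so that 3 counts, the limit a count of 0 allows, correspond to 0.145 to 0.171 CPM (counts scaled to library size); this floor covers counting error only. Within each group, no pair of libraries agreed within sampling noise (chi-square per gene of 37.8 or more). Sensitive replicate 2 stood apart: on the first principal component, which held 59.7% of the variance over all tested genes, it lay at 143.4 and the other 5 libraries between -42.2 and -7.87. It is therefore followed separately in the values of each member, and results that rest on it are given with and without it.

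Markers of macrophages were more abundant in the libraries than markers of LSECs. The CPM of 18 macrophage and Kupffer cell markers summed to 25030 to 43430 per library, with Marco, a scavenger receptor of macrophages, as the most abundant by FPKM (fragments scaled to library size and gene length), against 928 to 1612 for 16 LSEC markers, led by the scavenger receptor Stab1. Of the LSEC markers Cd209g was at 0 in all 6 libraries. The 17 pan-endothelial markers, led by Cdh5, summed to 91.1 to 560 CPM. These sums are not scaled to gene length, and the lists differ in size. Per length, the mean FPKM over the 6 libraries was 3741 for Marco and 56.6 for Stab1. Mcam, which encodes CD146 and was chosen after its values were seen, had 0.308 to 3.87 CPM. In bulk RNA, fewer cells of a type and less RNA per cell cannot be told apart. Since macrophages are known to express many Toll-like receptors, the values below describe the libraries labelled as LSECs and are not assigned to a cell type.

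The members lie on 7 chromosomes of GRCm38 as annotated in GENCODE M21, and 3 of them lie on chromosome X. Tlr1 (chr5:64924679-64933563) and Tlr6 (chr5:64952031-64960097) are neighbours on the minus strand, 18467 bases apart. Tlr7 (chrX:167304929-167330558) and Tlr8 (chrX:167242696-167264329) lie 40599 bases apart on the minus strand, and Tlr13 (chrX:106143204-106160493) lies far from them on the plus strand. The others are Tlr2 (chr3:83836272-83841767), Tlr3 (chr8:45395665-45411080), Tlr4 (chr4:66827584-66930284), Tlr5 (chr1:182954788-182976044) and Tlr9 (chr9:106222598-106226883). Tlr3 overlaps an annotated antisense gene, Gm45542, and since the sources used here do not say whether counting used strand, their reads may not have been told apart.

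Tlr1 and Tlr6 were the only pair, of 66 pairs among these 10 genes, Tlr11 and Tlr12, whose annotated transcripts shared any stretch as long as a read. They shared 256 such stretches, 7.8% of those of Tlr1 and 7.01% of those of Tlr6. The longest run in common was 229 bases, inside the single coding block of each gene (chr5:64925537-64925765 in Tlr1 and chr5:64953828-64954056 in Tlr6). Its first read length, 5′ to 3′ on the minus strand, are shown because a read with this sequence could come from either gene. Reads were paired, and how many counts this touches was not measured, so the counts of Tlr1 and Tlr6 are uncertain there.
shared by Tlr1 and Tlr6: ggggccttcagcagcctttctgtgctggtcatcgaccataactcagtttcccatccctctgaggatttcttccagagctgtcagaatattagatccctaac

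Promoter sequence, the 250 bases before the annotated start, was found in RefSeq (GRCm38.p6) for 8 of the 10 members, with 10 entries in all. It is shown for the members whose values the results turn on: Tlr13, the most abundant member, Tlr8, the member that varied most, Tlr1 and Tlr9, which varied together, and Tlr5, the least abundant. The windows are chrX:106143025-106143203 on the plus strand for Tlr13, chrX:167264330-167264579 on the minus strand for Tlr8, chr5:64933564-64933808 on the minus strand for Tlr1, chr9:106222348-106222597 on the plus strand for Tlr9 and chr1:182954538-182954787 on the plus strand for Tlr5. The windows of Tlr13 and Tlr1 stop at the GENCODE start and hold 179 and 245 bases. Capitals mark GAGGAA on either strand, the core bound by the myeloid ETS factor PU.1, and in Tlr5 GGGCGG, the GC box.
Tlr13: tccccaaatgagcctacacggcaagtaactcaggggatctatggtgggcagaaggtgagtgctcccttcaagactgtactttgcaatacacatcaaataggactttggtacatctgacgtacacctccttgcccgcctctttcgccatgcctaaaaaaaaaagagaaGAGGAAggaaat
Tlr8: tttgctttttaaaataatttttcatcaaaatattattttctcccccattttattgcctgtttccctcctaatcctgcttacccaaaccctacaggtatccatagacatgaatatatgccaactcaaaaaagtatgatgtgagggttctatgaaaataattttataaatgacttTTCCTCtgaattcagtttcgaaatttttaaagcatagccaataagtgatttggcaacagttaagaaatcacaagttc
Tlr1: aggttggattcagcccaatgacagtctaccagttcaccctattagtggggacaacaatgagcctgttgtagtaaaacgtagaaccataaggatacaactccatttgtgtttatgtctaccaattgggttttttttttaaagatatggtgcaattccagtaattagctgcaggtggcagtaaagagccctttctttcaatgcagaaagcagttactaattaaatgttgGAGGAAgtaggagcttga
Tlr9: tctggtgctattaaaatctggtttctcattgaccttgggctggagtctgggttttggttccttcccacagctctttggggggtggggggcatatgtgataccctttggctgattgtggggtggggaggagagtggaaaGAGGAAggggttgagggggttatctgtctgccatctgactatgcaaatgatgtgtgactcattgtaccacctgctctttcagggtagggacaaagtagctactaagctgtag
Tlr5: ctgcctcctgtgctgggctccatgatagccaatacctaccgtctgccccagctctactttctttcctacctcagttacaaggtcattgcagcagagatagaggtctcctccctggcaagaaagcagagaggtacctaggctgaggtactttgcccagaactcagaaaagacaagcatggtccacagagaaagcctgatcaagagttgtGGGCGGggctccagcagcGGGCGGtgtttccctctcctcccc

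The core GAGGAA was present, on either strand, in 4 of the 10 entries of the 8 members with a promoter entry. It lay at position -83 from the RefSeq start in Tlr13, -77 in Tlr8, -23 in Tlr1 and -112 in Tlr9. It is present in 23.3% of all 32851 promoter entries of the same length. GGGCGG was found in Tlr2 and Tlr5 (32.7% of all entries), TTGCNNAA, the C/EBP site, in Tlr3, Tlr6 and Tlr8 (9.56%), and TATAAA in Tlr6 and Tlr8 (12.4%), where N is any base. TGANTCA, the AP-1 site, was found in Tlr9 (6.75%), an interferon regulatory factor element (GAAA, any 2 bases, GAAA) in Tlr6 (2.98%), the NF-κB site (GGGA, any 2 bases, TTCC) in Tlr3 (1.21%), and CACGTG, an E-box, in the second entry of Tlr1 (6.02%). All motifs were searched on both strands. By GENCODE, the Tlr3 window, the Tlr6 window with the interferon regulatory factor and C/EBP sites, and the second Tlr1 window lie inside the gene. The GGGCGG matches of Tlr2 also lie in the part of its window that is inside the gene. A match is a description of these letters and was not tied to binding of a factor.

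Compared per length, Tlr13 was the most abundant member in all 6 libraries and Tlr7 followed it in all 6. The mean FPKM over the 6 libraries was 117 for Tlr13, higher than that of 97.6% of the tested genes, and 37.1 for Tlr7. Tlr8 followed with a mean FPKM of 21.4, Tlr4 with 17.2, Tlr2 with 13.2, Tlr6 with 10.7, Tlr1 with 8.82, Tlr9 with 4.40, Tlr3 with 3.12 and Tlr5 with 1.21. Tlr5 was last in every library. Of the 9 pairs of neighbours in this order, 4 kept their order in all 6 libraries: Tlr13 above Tlr7, Tlr7 above Tlr8, Tlr1 above Tlr9 and Tlr3 above Tlr5. For these 4 the exact paired permutation test of log2(FPKM + 0.1), two-sided, gave p = 0.0312, the smallest 6 libraries allow, and an adjusted p of 0.0702 over the 9 pairs. No pair of neighbours therefore passed the threshold after adjustment. With only 4 pairs at the smallest possible p none could pass, so the test cannot decide on these 4. The order itself was taken from the same 6 libraries. The levels of Tlr8 and Tlr4 (p = 0.625, exact), Tlr4 and Tlr2 (0.656), Tlr2 and Tlr6 (0.156), Tlr6 and Tlr1 (0.188) and Tlr9 and Tlr3 (0.375) were not told apart.

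**Figure D1:**
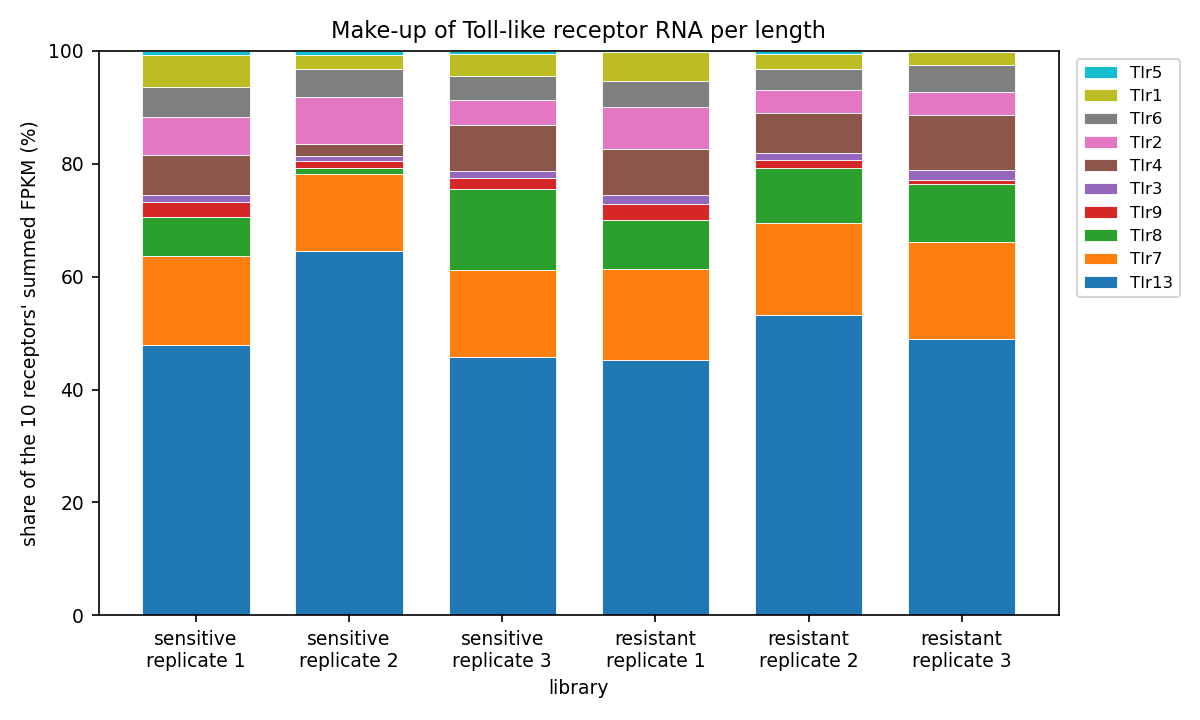
Share of the summed FPKM of the 10 receptors (percent, vertical axis) that each receptor holds in each of the 6 libraries (horizontal axis). Tlr13 holds 45.2% to 64.6% of each bar, and the share of Tlr8 is 1.15% in sensitive replicate 2.

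Endosomal receptors made up most of the members' RNA. Tlr3, Tlr7, Tlr8, Tlr9 and Tlr13 together held 74.4%, 81.4% and 78.6% of the members' summed FPKM in sensitive replicates 1, 2 and 3 and 74.5%, 82.0% and 78.9% in resistant replicates 1, 2 and 3. Tlr13 alone held 47.9%, 64.6% and 45.8% in the sensitive and 45.2%, 53.2% and 49.0% in the resistant libraries. The groups overlapped in both shares. The ratio of Tlr8 to Tlr7, in FPKM, was 0.443, 0.0846 and 0.944 in the sensitive and 0.537, 0.590 and 0.591 in the resistant libraries, so that it spanned both its lowest and its highest value within the sensitive group. Tlr1 relative to Tlr6, the alternative partners of Tlr2, was 1.07, 0.506 and 0.927 in the sensitive and 1.10, 0.724 and 0.476 in the resistant libraries.

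The resistant and sensitive groups were not told apart for any member. Of the 10 members, 0 had an adjusted p under 0.05 in edgeR's quasi-likelihood test (0% of the 15474 genes tested), 0 had an unadjusted p under 0.05 (3.08% of genes), and DESeq2's Wald test also called 0. The median log2 fold change of the members, resistant minus sensitive, was -0.085, with 4 above 0 and 6 below, against a median of 0.0078 over all tested genes, of which 49.2% were below 0. For 1 member, Tlr3, the CPM of the 2 groups did not overlap (9.02% of genes). With 3 libraries against 3, the smallest p that an exact permutation test can give is 0.1.

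**Figure D2:**
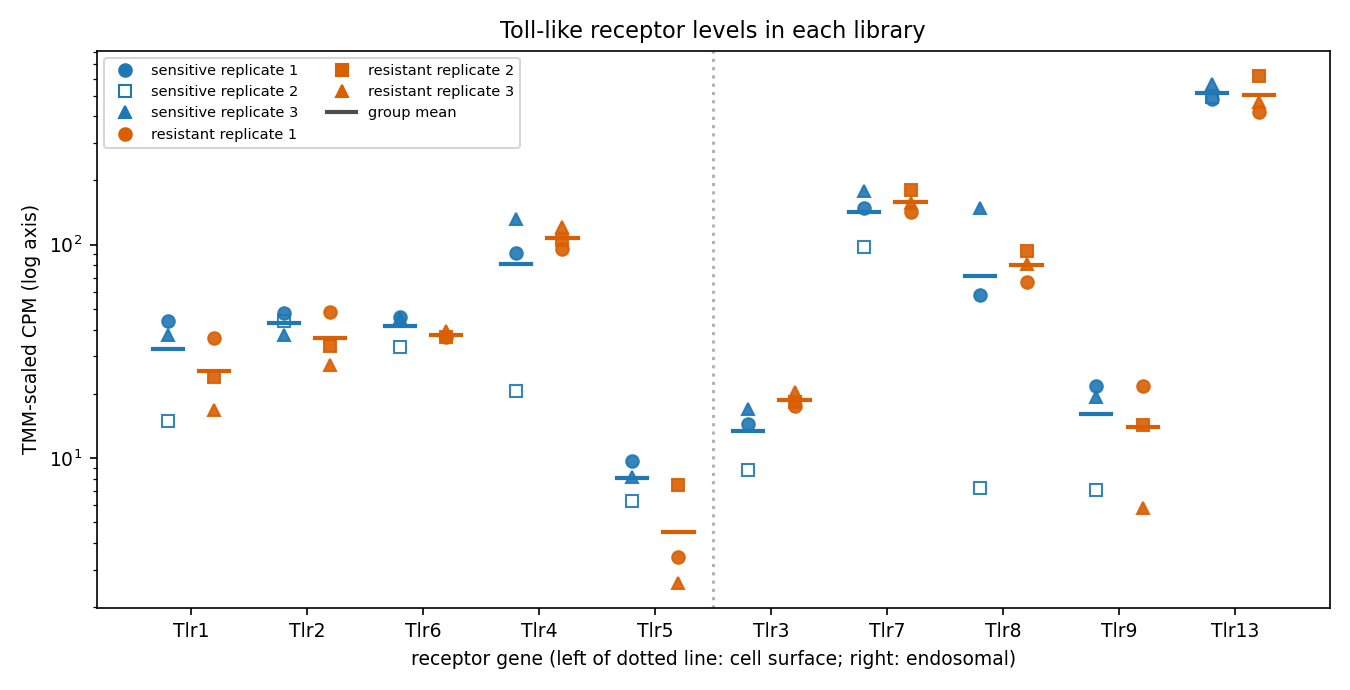
TMM-scaled CPM (log axis) of each receptor gene in each library, with sensitive libraries in blue, resistant in orange, 1 marker shape per replicate number and horizontal lines at the group means. The open square, sensitive replicate 2, is the lowest of 6 points for Tlr1, Tlr3, Tlr4, Tlr6, Tlr7 and Tlr8, and only for Tlr3 do the groups not overlap.

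Among the lipopeptide receptors, Tlr2, the shared partner, had 47.8, 43.7 and 37.8 CPM in sensitive replicates 1, 2 and 3 and 48.4, 33.7 and 27.3 CPM in resistant replicates 1, 2 and 3. Resistant replicate 1 was the highest of the 6 and resistant replicate 3 the lowest, so the groups overlapped. Its mean was 43.1 ± 5.04 (SD, n = 3) against 36.5 ± 10.8 CPM (SD, n = 3), a log2 fold change of -0.24 (standard error 0.26, unadjusted p = 0.385, adjusted p = 0.940 in edgeR). Sensitive replicate 2 was not low in Tlr2.

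Tlr1, which with Tlr2 binds triacylated lipopeptides, had 44.1, 15.0 and 37.8 CPM in the sensitive and 36.4, 24.0 and 16.8 CPM in the resistant libraries. Sensitive replicate 2 was the lowest library, just under resistant replicate 3. The means were 32.3 ± 15.3 and 25.7 ± 9.92 CPM (SD, n = 3 each), with a log2 fold change of -0.33 (standard error 0.46, unadjusted p = 0.492, adjusted p = 0.940 in edgeR). Without sensitive replicate 2 the log2 fold change was -0.68 (edgeR, unadjusted p = 0.0798, adjusted p = 0.984) and the other 2 sensitive libraries lay above all 3 resistant ones.

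Tlr6, the partner for diacylated lipopeptides, varied least between libraries, by a factor of 1.39 from the lowest to the highest CPM. It had 46.0, 33.0 and 45.4 CPM in the sensitive and 36.9, 36.9 and 39.3 CPM in the resistant libraries, so that the resistant libraries lay between sensitive replicate 2 and the other 2 sensitive libraries. Its log2 fold change was -0.14 (standard error 0.21, unadjusted p = 0.526, adjusted p = 0.940 in edgeR). Without sensitive replicate 2 it was -0.29, with an unadjusted p of 0.0383 and an adjusted p of 0.984 in edgeR, where 3.96% of all genes had an unadjusted p under 0.05.

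Tlr4, the receptor of lipopolysaccharide, had 91.4, 20.6 and 132 CPM in the sensitive and 95.8, 105 and 121 CPM in the resistant libraries. Sensitive replicate 2 was at 0.196 times the median of the other 5 libraries, which ranged from 91.4 to 132 CPM with both groups interleaved. The means were 81.2 ± 56.2 and 107 ± 12.5 CPM (SD, n = 3 each), with a log2 fold change of 0.40 (standard error 0.58, unadjusted p = 0.512, adjusted p = 0.940 in edgeR), and of -0.066 without sensitive replicate 2. The direction of the Tlr4 difference thus rested on that library.

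Tlr5, the receptor of flagellin, was the least abundant member and had the largest difference in log2 terms. Its counts were 203, 97 and 167 in the sensitive and 76, 145 and 51 in the resistant libraries, which correspond to 9.71, 6.30 and 8.17 and to 3.44, 7.45 and 2.61 CPM. Resistant replicates 1 and 3 were the lowest libraries, while resistant replicate 2 lay among the sensitive ones. The means were 8.06 ± 1.71 and 4.50 ± 2.59 CPM (SD, n = 3 each), sensitive first, a fold of 0.558. The log2 fold change was -0.84 (standard error 0.46, approximate 95% interval -1.75 to 0.064, unadjusted p = 0.111, adjusted p = 0.940 in edgeR), and the exact permutation p of the CPM was 0.2, two-sided. Without resistant replicate 2 the log2 fold change was -1.40, with an unadjusted p of 0.0166 in edgeR, and without sensitive replicate 2 it was -1.0 (unadjusted p = 0.0793). Its smallest adjusted p over the alternatives was 0.659.

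**Figure D3:**
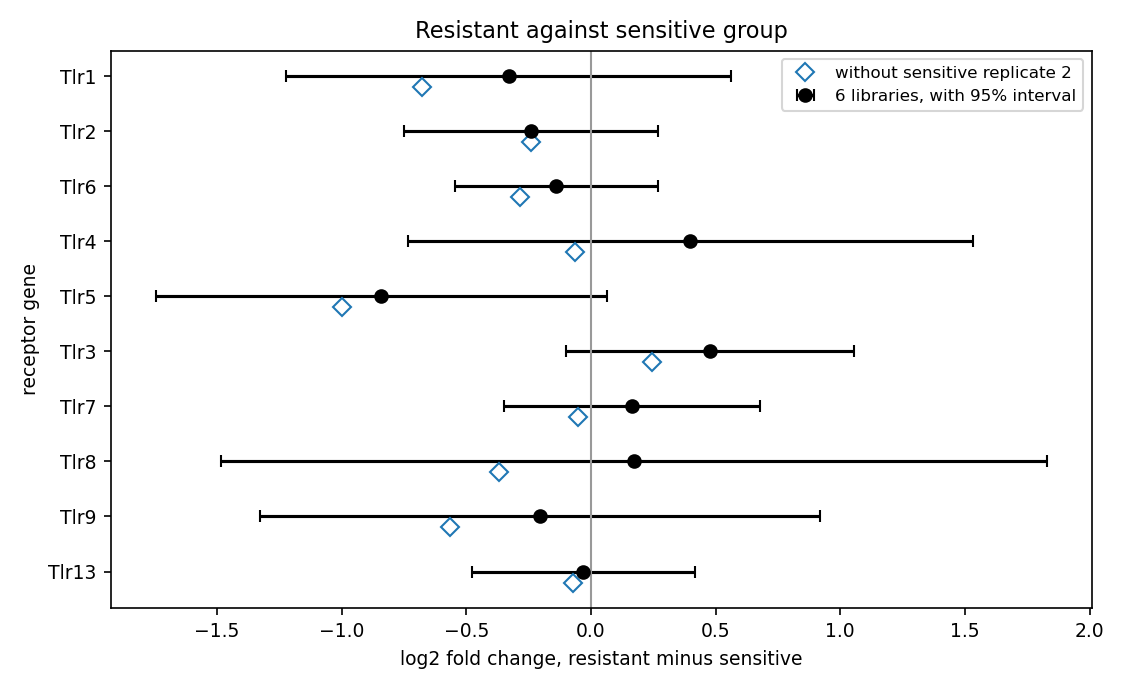
Log2 fold change of each receptor, resistant minus sensitive (horizontal axis), from edgeR over 6 libraries with approximate 95% intervals (black), and without sensitive replicate 2 (open blue diamonds, no interval). All 10 intervals include 0, and the diamonds of Tlr4, Tlr7 and Tlr8 lie on the other side of 0 from the black points.

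Of the endosomal receptors, Tlr3, which binds double-stranded RNA, was the member whose groups did not overlap. It had 14.5, 8.83 and 17.0 CPM in the sensitive and 17.6, 18.2 and 20.4 CPM in the resistant libraries, so that the highest sensitive and the lowest resistant library were close. The means were 13.4 ± 4.20 and 18.7 ± 1.48 CPM (SD, n = 3 each), a fold of 1.39. Its log2 fold change was 0.48 (standard error 0.29, approximate 95% interval -0.099 to 1.06, unadjusted p = 0.148, adjusted p = 0.940 in edgeR), with an exact permutation p of 0.1, the smallest that 3 against 3 allows. When sensitive replicate 2 was left out, the log2 fold change was 0.24 (edgeR, unadjusted p = 0.191, adjusted p = 0.984).

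Tlr7, a receptor of single-stranded RNA, had 149, 97.8 and 179 CPM in the sensitive and 142, 180 and 156 CPM in the resistant libraries. Apart from sensitive replicate 2, the lowest, the libraries of both groups covered the same range. The log2 fold change was 0.17 (standard error 0.26, unadjusted p = 0.549, adjusted p = 0.940 in edgeR) and -0.052 without sensitive replicate 2.

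Tlr8, the neighbour of Tlr7 on chromosome X and also a receptor of single-stranded RNA, varied most, by a factor of 20.4 from the lowest to the highest CPM. Its counts were 1214, 112 and 3033 in the sensitive and 1475, 1816 and 1582 in the resistant libraries, or 58.1, 7.27 and 148 and 66.8, 93.3 and 81.1 CPM. Both the lowest and the highest library were in the sensitive group, which had a mean of 71.3 ± 71.5 CPM against 80.4 ± 13.3 CPM for the resistant group (SD, n = 3 each). The log2 fold change of 0.17 had a standard error of 0.85 and an approximate 95% interval of -1.49 to 1.83 (unadjusted p = 0.844, adjusted p = 0.975 in edgeR), which spans large changes in either direction. Without sensitive replicate 2 it was -0.37, and without sensitive replicate 3 it was 1.30 (unadjusted p = 0.14 in edgeR).

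Tlr9, the receptor of CpG DNA, had 21.7, 7.07 and 19.4 CPM in the sensitive and 21.8, 14.2 and 5.84 CPM in the resistant libraries. Each group held 1 library far below its others, sensitive replicate 2 and resistant replicate 3, and the groups overlapped. Its log2 fold change was -0.20 (standard error 0.57, unadjusted p = 0.732, adjusted p = 0.956 in edgeR) and ranged from -0.67 to 0.17 with each library left out in turn.

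Tlr13, which recognises bacterial ribosomal RNA, had 481, 490 and 565 CPM in the sensitive and 418, 617 and 468 CPM in the resistant libraries. The lowest and the highest library were both resistant, and sensitive replicate 2 lay at 1.02 times the median of the other 5. With means of 512 ± 46.3 and 501 ± 104 CPM (SD, n = 3 each), its log2 fold change was -0.032 (standard error 0.23, approximate 95% interval -0.48 to 0.42, unadjusted p = 0.893, adjusted p = 0.983 in edgeR). The interval, which is narrower than the test's own, leaves room for a change of at least that size in either direction.

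**Figure D4:**
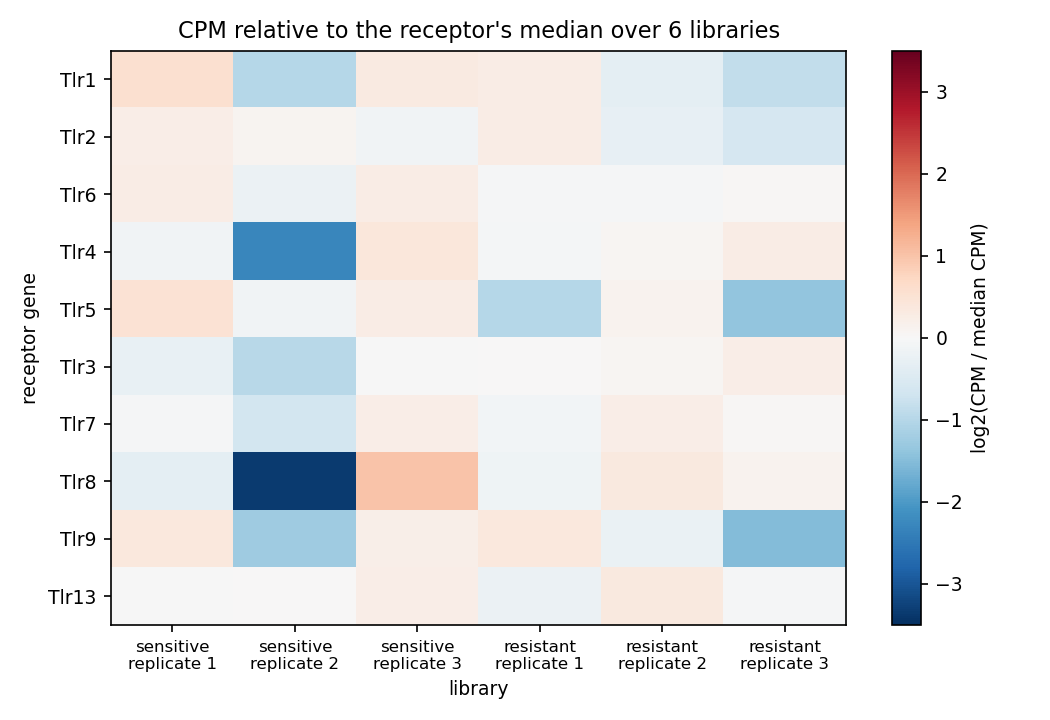
Each receptor's CPM in each library relative to that receptor's median over the 6 libraries, on a log2 colour scale (blue lower, red higher). Tlr8 and Tlr4 are darkest blue in sensitive replicate 2, Tlr9 and Tlr5 are low in resistant replicate 3, and Tlr13 is pale throughout.

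Sensitive replicate 2 separated the members from one another more than the groups did. Its CPM was 0.0896 times the median of the other 5 libraries for Tlr8, 0.196 for Tlr4, 0.364 for Tlr9, 0.412 for Tlr1, 0.502 for Tlr3 and 0.627 for Tlr7. By contrast the ratio was 0.841 for Tlr6, 0.845 for Tlr5, 1.02 for Tlr13 and 1.158 for Tlr2. Only 6.52% of the tested genes had a lower ratio than Tlr8, and 8.42% a lower one than Tlr4, while the median ratio over all tested genes was 0.93. In all, 6 of the 10 members were lowest in this library, against 40.7% of the tested genes. The same library had the highest sums of macrophage and Kupffer cell markers (43430 CPM against 25030 to 39650 in the other 5) and of neutrophil markers (7886 against 332 to 4948 CPM). Of the 18 macrophage and Kupffer cell markers, however, 7 (38.9%) were lowest in it. Its sums were also the highest for plasmacytoid dendritic cells (490 CPM), stellate cells (872), epithelium (297) and NK cells (7.79), and the lowest for LSECs (928). The part of cell make-up in the members' values was not tested.

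Leaving out sensitive replicate 2 changed how many members lay apart between the groups. The groups then did not overlap for 4 of the 10 members, Tlr1, Tlr5 and Tlr6 lower and Tlr3 higher in the resistant group, where 19.5% of all genes did not overlap with these 2 libraries against 3. The count was 3 without sensitive replicate 3 (26.8% of all genes), 3 without resistant replicate 2 (15%), 2 without resistant replicate 1 (23.4%), 1 without sensitive replicate 1 (19.7%) and 1 without resistant replicate 3 (12.7%). In the fit without sensitive replicate 2, 9 of the 10 members had a log2 fold change below 0, against 8083 of 15965 genes, and the median of the members was -0.26. No member passed the threshold after adjustment in any fit with a library left out.

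Across the 6 libraries, some members varied together, which is given as a description over libraries that share a depth and a make-up each. Pearson's r of log2 CPM was 0.986 for Tlr4 and Tlr8 (0.876 without sensitive replicate 2), 0.969 for the neighbours Tlr7 and Tlr8 (0.834) and 0.958 for Tlr1 and Tlr9 (0.948). For Tlr7 and Tlr13 it was 0.492 over 6 libraries and 0.960 without sensitive replicate 2, and for Tlr1 and Tlr3 it turned from 0.317 to -0.897. The neighbours Tlr1 and Tlr6, whose transcripts share the stretch above, had an r of 0.741 (0.560). The median over the 45 pairs of members was 0.436, and 0.193 without sensitive replicate 2.

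The tested genes most like each member were picked by the highest r over the same 6 libraries among 9134 or 9135 genes. For Tlr1 they were Crybg1 (r = 0.990), Tnfaip3 (0.989) and Irak3 (0.986). Tnfaip3, a ubiquitin-editing enzyme, and Irak3, a kinase-like inhibitor, are among the negative regulators that are counted but not named below. For Tlr2 they were Nup210 (0.988), Tap1 (0.986) and Samhd1 (0.980). Tlr5 was most like Poldip3 (0.985), Gadd45b (0.973) and Hif1a (0.968), Tlr6 most like Ccng2 (0.971), Gramd4 (0.969) and Nudt21 (0.963), and Tlr9 most like Pfkfb3 (0.987), Zfp513 (0.973) and Zup1 (0.970).

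The closest genes were Nedd1, Slc6a6 and Phc3 for Tlr4 (r of 1.00 after rounding for each), Fam210a (0.999), Zfp871 (0.998) and Birc6 (0.998) for Tlr8, Zfp251 (0.999), Ttf2 (0.998) and Commd6 (0.997) for Tlr7, and Pomk (0.998), Ppp2r5b (0.998) and Slc30a5 (0.997) for Tlr3. With sensitive replicate 2 left out, these r were 0.981 to 0.996. The remaining libraries were part of the choice, so this range is no separate check. For Tlr13 the closest were Ndufab1-ps (0.973), Elk3 (0.970) and Rab11fip5 (0.965). These values are descriptive, and no p is given, since the highest r among so many genes over so few libraries is high by selection alone.

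Of the family outside the 10 members, Tlr12 had a mean FPKM of 1.93 and a log2 fold change of -0.46 (unadjusted p = 0.302 in edgeR). Tlr11 had 0 to 1 counts per library, at or under the floor of 3 counts, and was not tested. Cd180, a relative of Tlr4 on B cells and myeloid cells, had 46.4, 20.7 and 60.8 CPM in the sensitive and 27.0, 60.0 and 41.8 CPM in the resistant libraries, with a log2 fold change of 0.0091 (unadjusted p = 0.984 in edgeR).

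The co-receptors and ligand-handling genes included 1 gene past an unadjusted p of 0.05 among 9 tested of 10 (3.08% of all genes), and 0 after adjustment. Cd14, the helper that passes lipopolysaccharide to Tlr4, had 110, 135 and 80.8 CPM in the sensitive and 214, 145 and 164 CPM in the resistant libraries, all 3 above the sensitive ones. Its log2 fold change was 0.69 (standard error 0.26, unadjusted p = 0.0344, adjusted p = 0.940 in edgeR), 0.87 without sensitive replicate 2 (unadjusted p = 0.00868), and its largest unadjusted p with a library left out was 0.115. The integrin chains Itgb2 and Itgam had log2 fold changes of 0.31 (unadjusted p = 0.383) and -0.46 (unadjusted p = 0.203). Cd36, a scavenger receptor that presents ligands to Tlr2 and Tlr6, ranged from 41.4 to 1094 CPM within the resistant group alone (log2 fold change 1.38, unadjusted p = 0.184 in edgeR). The median log2 fold change of the list was -0.14.

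Genes for folding, trafficking and endosomal processing of the receptors were among the most abundant of the pathway. Of 20 tested, 0 were higher and 1 was lower at an unadjusted p under 0.05 (2.54% of all genes were lower), and the groups did not overlap for 2, both lower (4.38% of all genes were lower without overlap). Pld4, an endosomal exonuclease that degrades ligands of Tlr9, had 227, 493 and 371 CPM in the sensitive and 214, 191 and 152 CPM in the resistant libraries. Its log2 fold change was -0.97 (standard error 0.32, unadjusted p = 0.0185, adjusted p = 0.940 in edgeR) and -0.69 without sensitive replicate 2 (unadjusted p = 0.0327), and its largest unadjusted p with a library left out was 0.0703. Lgmn, a lysosomal protease that cuts endosomal receptors, had 3394, 4106 and 4144 CPM against 3115, 3365 and 2410 CPM (log2 fold change -0.39, unadjusted p = 0.157 in edgeR). The cathepsins Ctsb, Ctss and Ctsl, proteases of the same compartment, had log2 fold changes of 0.044, -0.29 and 0.40 and unadjusted p of 0.878, 0.408 and 0.406 in edgeR. The median of the list was -0.0060.

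No adaptor moved between the groups at an unadjusted p under 0.05, of 6 tested, and the median log2 fold change was -0.040. Myd88 had 78.1, 74.4 and 59.6 CPM in the sensitive and 70.5, 51.8 and 48.6 CPM in the resistant libraries (log2 fold change -0.31, unadjusted p = 0.209 in edgeR). Ticam1 ranged from 26.2 to 31.2 CPM over all 6 libraries (log2 fold change 0.061, unadjusted p = 0.760). Tirap, the bridge from Tlr2 and Tlr4 to Myd88, was low in sensitive replicate 2 as Tlr4 was and Tlr2 was not, with 14.0 CPM there against 35.3 to 47.4 CPM in the other 5 libraries. Its log2 fold change was 0.073 (unadjusted p = 0.874 in edgeR) and turned to -0.32 without that library (unadjusted p = 0.0439). Pik3ap1, an adaptor to PI3 kinase, had a log2 fold change of 0.080, Ticam2, the bridge from Tlr4 to Ticam1, -0.14, and Sarm1, an inhibitory adaptor, -0.41 at 0.462 to 3.25 CPM.

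Further down the pathway, 0 of 20 kinases and ubiquitin ligases, 0 of 13 transcription factors and 0 of 22 negative regulators had an unadjusted p under 0.05 in edgeR, with medians of 0.098, 0.041 and -0.068 on the log2 scale. Among the 20 kinases and ligases the groups did not overlap for 4 genes (9.02% of all genes), Map3k7 (TAK1; log2 fold change 0.48), Chuk (an IκB kinase; 0.30) and Mapk14 (p38α; 0.19) higher and Peli1 (a ubiquitin ligase; -0.21) lower in the resistant group. Of these, Map3k7 had 70.5, 30.0 and 72.1 CPM in the sensitive and 74.5, 80.0 and 85.6 CPM in the resistant libraries. Without sensitive replicate 2 the log2 fold changes were 0.16 for Map3k7, 0.068 for Chuk, 0.096 for Mapk14 and -0.25 for Peli1. The most abundant kinases besides Mapk14 were Tbk1, Irak1 and Tab2, with log2 fold changes of 0.022, 0.28 and 0.11. Among the transcription factors Irf7, which drives type I interferon genes, had 488, 738 and 265 CPM against 307, 457 and 137 CPM (log2 fold change -0.73, unadjusted p = 0.202 in edgeR), and Irf5, Jun and Atf3 had 0.14, 0.041 and 0.36. Of the negative regulators, Nfkbia (IκBα), Ptpn6, Lyn and Dusp1 had log2 fold changes of -0.31, -0.32, 0.17 and -0.098. With sensitive replicate 2 left out, the counts at an unadjusted p under 0.05 in edgeR (3.96% of all genes) were 1 higher (Cd14) and 1 lower (Ly86) of 9 co-receptors, 1 lower of 20 folding and trafficking genes (Pld4), 1 lower of 6 adaptors (Tirap) and 0 of the kinases, transcription factors and negative regulators.

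**Figure D5:**
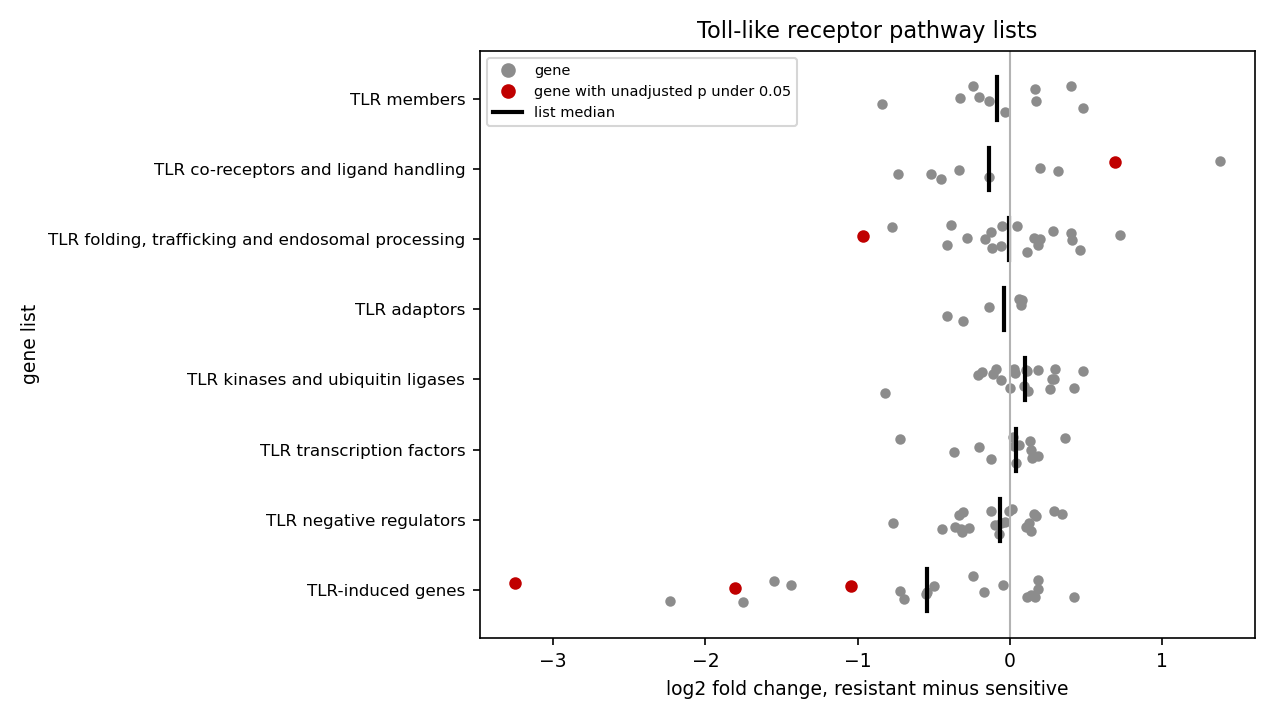
Log2 fold change, resistant minus sensitive (horizontal axis), of each tested gene in the receptor list and 7 pathway lists (rows), with list medians as black bars and genes with an unadjusted p under 0.05 in red. The red points are Cd14 to the right of 0, and Pld4, Tnf, Clec4e and Nos2 to the left.

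Genes that Toll-like receptors are known to induce lay lower in the resistant group more often than higher, but none passed the threshold after adjustment. Of 24 listed genes 21 were tested, 15 had a log2 fold change below 0 (49.2% of all tested genes did) and the median was -0.55. At an unadjusted p under 0.05, 3 were lower and 0 higher (2.54% of all genes were lower): Nos2, the inducible nitric oxide synthase, at -3.25 (standard error 0.95, unadjusted p = 0.0112), Clec4e, the lectin Mincle, at -1.80 (standard error 0.58, unadjusted p = 0.0171) and the cytokine Tnf at -1.04 (standard error 0.43, unadjusted p = 0.0445), all from edgeR. Nos2 had 12.4, 9.80 and 0.783 CPM in the sensitive and 0.951, 0.976 and 0.461 CPM in the resistant libraries, so that sensitive replicate 3 lay among the resistant ones. Clec4e had 51.9, 55.4 and 25.8 CPM against 23.5, 9.40 and 5.18 CPM, with no overlap, and so had the cytokine Il10, with 9.76, 8.44 and 6.17 against 5.75, 2.06 and 0.461 CPM (unadjusted p = 0.0878). Tnf had 9.76, 12.5 and 5.24 CPM against 5.98, 3.29 and 4.05 CPM.

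The abundant induced genes did not share 1 direction. The acute-phase gene Saa3 had 213, 1387 and 289 CPM in the sensitive and 277, 86.1 and 38.3 CPM in the resistant libraries (log2 fold change -2.23, unadjusted p = 0.0513 in edgeR), and Marco, also a macrophage marker, 5465, 13610 and 8411 against 6037, 4342 and 6314 CPM (-0.72, unadjusted p = 0.102). Both were highest in sensitive replicate 2. Without it the log2 fold change was -0.91 for Saa3 (unadjusted p = 0.284) and -0.33 for Marco (unadjusted p = 0.295, both from edgeR). Ccl2 and Ccl3, chemokines for monocytes, had log2 fold changes of 0.13 and 0.18. Without sensitive replicate 2 that of Ccl2 turned to -0.32, and that of Ccl3 was 0.24. Without sensitive replicate 2, 22 of the genes were tested and the median was -0.32, Nos2 and Clec4e kept an unadjusted p under 0.05 (0.0307 and 0.0493 in edgeR), and Tnf did not (0.108).

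Several marker lists also lay lower in the resistant group, with 0 markers past the threshold after adjustment in any list (edgeR). Hepatocyte and stellate cell markers went the other way. Of those tested, 6 of 7 and 6 of 8 had a log2 fold change above 0, with medians of 0.69 and 0.29, and 0 had an unadjusted p under 0.05. Of 17 pan-endothelial markers 16 had a log2 fold change below 0 (49.2% of all tested genes did), with a median of -1.08. Of these markers, 6 were lower at an unadjusted p under 0.05 (2.54% of all genes were lower) and 7 were lower without overlap (4.38%). Their CPM summed to 457, 354 and 560 in the sensitive and 437, 91.1 and 456 in the resistant libraries, so that the sums overlapped, and resistant replicate 2 was far below the others. Of 15 tested LSEC markers 12 were below 0 with a median of -0.36, and 0 had an unadjusted p under 0.05. All 10 neutrophil markers had a log2 fold change below 0, and their CPM summed to 4948, 7886 and 646 in the sensitive and 1977, 1585 and 332 in the resistant libraries, with S100a9 as the most abundant. At an unadjusted p under 0.05, 2 of these 10 were lower. All 6 monocyte markers, led by Chil3, were below 0 too, of which 2 had an unadjusted p under 0.05, and their sums of 5723, 4934 and 2901 against 2186, 5600 and 3968 CPM overlapped. Sensitive replicate 3, where Nos2 was low, also had the lowest neutrophil sum of the sensitive libraries. Of the 18 macrophage and Kupffer cell markers 8 were above and 10 below 0. Among them, 1 was lower at an unadjusted p under 0.05 in edgeR (2.54% of all genes) and 1 was lower without overlap (4.38%). The part of any of these cells in the differences of the induced genes was not tested. The sums of other lists were 344 to 872 CPM for stellate cells (mainly Ecm1), 152 to 490 for plasmacytoid dendritic cells (mainly Bst2, with Cd209d at 0), 32.1 to 159 for hepatocytes (Alb), 11.6 to 297 for epithelium (Krt8), 17.0 to 23.7 for conventional dendritic cells (Clec9a, with Cd209a at 0), 0.925 to 11.3 for B cells (Ighm) and 0.0514 to 7.79 for NK cells (Gzma, with Klrb1c at 0).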

How the data were processed

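RNA-seq was measured in 6 libraries labelled as mouse LSECs, 3 of the sensitive and 3 of the resistant group, by the sample titles. The authors aligned the reads and deposited whole counts per gene, not normalized. FPKM were deposited as well, and were the counts over library total and 1 length per gene (relative spread at most 9.46e-15 over 11667 genes). Levels of different members were compared only in FPKM. Marker lists were compared as summed CPM, which are not scaled to gene length. The submitters' processing notes name HISAT2 2.0.5, featureCounts 1.5.0-p3, DESeq2 1.16.1, edgeR and the build mm9. The gene lengths behind FPKM equalled the exon lengths of GENCODE M21 (GRCm38) for 97.8% of the 14886 tested genes with an entry and for 9 of the 10 members (Tlr5 was the other), and coordinates are of that build, since the files hold none. The annotation release and the strand setting are not given in the sources used here, and by the methods both selection of poly(A) RNA and removal of ribosomal RNA were used. A table with the authors' own comparison (group means, fold changes and p-values) was not used.

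In R 4.3.3, genes were kept by filterByExpr (15474 of 60832), scaled by TMM (factors 0.881 to 1.07) and compared with edgeR 4.0.16's quasi-likelihood test with robust moderation, two-sided, without covariates, and with Benjamini-Hochberg adjustment over all tested genes (threshold 0.05). CPM are TMM-scaled (prior count 2 on the log2 scale). The common biological coefficient of variation was 42.2%. The fit was checked on simulated counts with known changes. DESeq2 1.42.0, DESeq2 size factors, no filter, the replicate block, library totals, a pseudocount of 1 for FPKM and each library left out in turn were the alternatives. Figures were drawn with matplotlib 3.10.9. Counts carry no molecular identifiers, so floors cover counting error only.

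All 10 members are named. From the pathway lists the text names every adaptor, every gene of the family outside the members, and otherwise the 4 genes of highest FPKM, genes with an unadjusted p under 0.05 and up to 5 whose groups did not overlap. For each member the 3 most alike genes with an average log2 CPM of at least 3 are named, and for each marker list the most abundant gene and those at 0. The members and lists were chosen with earlier results of these data known. The pathway counts without sensitive replicate 2, and the shares of genes beside them, were chosen after seeing the data.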

Additional observations from a re-analysis of the deposited data

How the results depend on the processing

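Of 100 values of the members' log2 fold changes under the alternatives, 91 kept their direction and 9 reversed it, all with adjusted p of 0.935 or more. Without sensitive replicate 2 they were -0.066 for Tlr4, -0.052 for Tlr7 and -0.37 for Tlr8, and with each library left out in turn they ranged from -0.066 to 0.94, from -0.052 to 0.37 and from -0.37 to 1.30. Tlr9 ranged from -0.67 to 0.17 and was 0.071 without sensitive replicate 1, and Tlr13 ranged from -0.20 to 0.092 and was 0.039 with no filter on low counts. The causes were not tested. Members with an adjusted p under 0.05 were 0 under every alternative run. Members with an unadjusted p under 0.05 were 0 to 1 with each library left out (Tlr6 without sensitive replicate 2, Tlr5 without resistant replicate 2) and 0 otherwise, and members without overlap were 1 to 4. Over all genes, 0 had an adjusted p under 0.05 with each library left out, 2 when no filter was used, 24 in DESeq2's Wald test, and the 476 with an unadjusted p under 0.05 became 2036, 732 and, with a library left out, 167 (without resistant replicate 3) to 1056 (without sensitive replicate 3), with 245 without resistant replicate 2. Leaving out a library from the order of members was not run as a test, since the smallest p that 5 libraries allow is 0.0625. With a pseudocount of 1, 0 neighbours differed, under the same limit that 6 libraries set on the smallest p.

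Libraries of the same number did not all deviate together (correlations of -0.0009, 0.0343 and 0.194), so the numbers were not taken as pairs; with the replicate block 0 members and 0 genes passed after adjustment and 467 genes had an unadjusted p under 0.05.

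Depth limits Tlr5 most, at 51 to 203 counts per library. The approximate 95% intervals of the log2 fold changes of Tlr4 and Tlr8, from -0.73 to 1.53 and from -1.49 to 1.83, do not exclude large changes in either direction.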

Other observations

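The marker genes of macrophages differed among themselves in sensitive replicate 2 as the receptors did (genes named here were chosen after their values were seen). Adgre1, which encodes F4/80, had 140 CPM there against 348 to 574 in the other 5 libraries, and Mertk had 130 against 379 to 506. By contrast Clec4f had 5567 against 1777 to 3670 and C1qa 4946 against 1624 to 3097. Tlr8 and Tlr4 were low in that library together with the former genes, while Tlr13 and Tlr2 lay within the range of the other libraries, and the cause of this split was not tested.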
